A study of Mus musculus with 35 samples.

Results

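The genes described here are 9 genes known for their use in retinal ganglion cells, of 16708 mouse coding genes whose start could be placed on the mm9 genome build of the deposited files. They are the transcription factors Pou4f1, Pou4f2, Pou4f3 and Isl1, the RNA-binding proteins Rbpms and Elavl4, and the genes of neuronal structure and surface Sncg, Thy1 and Nefl. They were taken from a list and not by their measured values, although the list was chosen with earlier results of these data known. No mm9 annotation was used here. The GRCm38 start of each gene was moved by the offset that put most nearby coding starts within 1 kb of wild-type P0 H3K4me3 peaks, so each mm9 start is an estimate, and a P0 H3K4me3 peak near a start is in part what placed it. The estimated starts are chr14:104867623 for Pou4f1, chr8:80960569 for Pou4f2, chr18:42554248 for Pou4f3, chr13:117099784 for Isl1, chr8:35040496 for Rbpms, chr14:35187876 for Sncg, chr9:43851328 for Thy1, chr14:68702839 for Nefl and chr4:110024581 for Elavl4. "At the start" means within 2 kb of these positions.

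The study measured chromatin marks in mouse retinae by ChIP-Seq, which sequences the DNA held by an antibody against a mark or a protein. Brg1, the ATPase of the SWI/SNF (BAF) remodelling complex, was precipitated through its FLAG tag from Brg1-FLAG knock-in retinae at P0, the day of birth (1 library). H3K4me3, H3K27Ac and H3K27me3 were measured in wild-type retinae of 3 stages, P0, P14 and P21 (2 libraries of each mark at each), and of P12 (1 library each for H3K4me3 and H3K27Ac, 2 for H3K27me3). In Brg1-deficient retinae (Chx10-Cre;Brg1 Lox/Lox) the marks were measured at P12 (1 library each for H3K4me3 and H3K27me3, 2 for H3K27Ac). Chx10-Cre is a transgene used by retinal progenitor cells in a mosaic pattern, so Brg1-deficient and wild-type stripes lay side by side in those retinae. The study's discussion says that mice with small eyes were preferred for the ChIP-Seq. The P12 H3K27me3 libraries were made with another antibody (AB3) than those of the other ages (AB1), so ages are not compared across them. The labels do not say which libraries came from separate animals, and the P values below therefore measure only the spread between these libraries.

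Retinal ganglion cells are the output neurons of the eye: their axons form the optic nerve. In mouse they are born before birth, Pou4f2 and Isl1 act together in the young ganglion cell, and Pou4f1 and Pou4f3 are used in overlapping sets of ganglion cells later. H3K4me3 marks gene starts that are active or poised, H3K27Ac marks active promoters and enhancers, and H3K27me3 is laid down by the Polycomb complex PRC2 over silenced genes, often in broad domains over developmental regulators.

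The promoters below are those of the members for which RefSeq (GRCm38.p6) gave a sequence, and they are shown because the members differ widely in CG content at the start, the feature that H3K4me3 and H3K27me3 domains usually overlie. Each runs 5′ to 3′ from 250 bases before a RefSeq start to 50 after it, all on the minus strand, with every CG in capitals. They lie at chr14:104467950-104468249 (Pou4f1), chr8:78436598-78436897 (Pou4f2), chr13:116309639-116309938 (Isl1), chr14:34374620-34374919 (Sncg), chr4:110351862-110352161 (Elavl4, first start) and chr4:110287478-110287777 (Elavl4, a start inside the gene).
Pou4f1: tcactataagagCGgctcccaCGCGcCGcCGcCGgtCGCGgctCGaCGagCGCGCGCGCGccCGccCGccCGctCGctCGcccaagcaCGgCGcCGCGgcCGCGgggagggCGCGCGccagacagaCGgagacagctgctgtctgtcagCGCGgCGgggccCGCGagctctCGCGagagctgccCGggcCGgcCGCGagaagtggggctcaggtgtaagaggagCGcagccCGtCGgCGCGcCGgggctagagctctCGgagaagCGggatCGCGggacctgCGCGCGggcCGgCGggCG
Pou4f2: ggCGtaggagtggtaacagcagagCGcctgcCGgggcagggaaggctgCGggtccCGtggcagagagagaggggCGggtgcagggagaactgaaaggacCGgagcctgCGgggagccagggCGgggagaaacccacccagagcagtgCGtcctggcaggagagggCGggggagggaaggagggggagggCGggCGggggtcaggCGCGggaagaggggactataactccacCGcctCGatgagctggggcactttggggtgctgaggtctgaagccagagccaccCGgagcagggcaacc
Isl1: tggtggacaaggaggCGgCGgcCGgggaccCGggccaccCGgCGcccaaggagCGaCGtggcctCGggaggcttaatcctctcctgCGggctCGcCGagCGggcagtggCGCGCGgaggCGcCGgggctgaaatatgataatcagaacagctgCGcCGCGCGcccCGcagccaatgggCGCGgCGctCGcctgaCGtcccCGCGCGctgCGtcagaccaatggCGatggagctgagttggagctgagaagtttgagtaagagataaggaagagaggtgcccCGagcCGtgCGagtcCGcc
Sncg: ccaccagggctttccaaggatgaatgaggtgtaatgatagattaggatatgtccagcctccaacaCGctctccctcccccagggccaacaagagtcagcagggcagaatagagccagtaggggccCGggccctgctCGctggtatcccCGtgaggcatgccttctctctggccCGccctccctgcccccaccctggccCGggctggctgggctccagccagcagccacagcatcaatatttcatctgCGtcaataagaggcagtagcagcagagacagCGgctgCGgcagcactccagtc
Elavl4 first start: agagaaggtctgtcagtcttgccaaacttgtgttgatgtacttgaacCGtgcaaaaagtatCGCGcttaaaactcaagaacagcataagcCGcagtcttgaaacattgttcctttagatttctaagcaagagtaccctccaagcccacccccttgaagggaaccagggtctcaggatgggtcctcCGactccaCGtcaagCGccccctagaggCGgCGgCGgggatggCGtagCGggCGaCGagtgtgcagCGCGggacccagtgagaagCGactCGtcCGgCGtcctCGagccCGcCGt
Elavl4 inner start: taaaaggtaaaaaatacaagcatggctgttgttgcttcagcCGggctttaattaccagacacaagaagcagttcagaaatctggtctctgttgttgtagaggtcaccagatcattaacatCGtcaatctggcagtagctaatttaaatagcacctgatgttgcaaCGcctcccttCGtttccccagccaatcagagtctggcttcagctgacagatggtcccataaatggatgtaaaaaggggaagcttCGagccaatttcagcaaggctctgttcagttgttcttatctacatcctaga

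Over 32851 RefSeq promoters of the same length the median was 7 CG. The Pou4f1 promoter held 57 CG, more than 99.8% of all promoters. Isl1 held 37 (more than 94.4%), Elavl4 23 at its first start (78.5%), Pou4f2 18 (70.3%) and Sncg 9 (54.2%), while the inner start of Elavl4 held 5 (38.0%). So Pou4f1 and Isl1 were rich in CG, the first start of Elavl4 and Pou4f2 lay above the median, and Sncg was close to the middle of all promoters. On both strands, GGGCGG, the box bound by Sp factors, stood 5 times in the Pou4f2 promoter, 2 times in that of Pou4f1 and 1 time in that of Sncg, against 35.7% of all promoters with at least 1 match (each match includes 1 CG). The hexamer CAGCTG, a form of the E-box bound by proneural bHLH factors, stood 1 time in the promoters of Pou4f1 and Isl1 and at the inner start of Elavl4, against 16.3% of all promoters. TATAAA, the TATA box, had no match in the 6 windows and is found in 13.6% of all promoters.

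The tissue was checked against marker lists. Of 7 retinal transcription factors 5 could be placed, and all 5 were marked by H3K4me3 at the start in each of the 6 libraries of the 3 stages. Their mean scaled heights (scaling is described below) went in both directions between P0 and P21: 42.4 and 8.76 for Pax6, 46.3 and 15.7 for Six3, 41.5 and 31.2 for Six6, 12.8 and 35.8 for Crx, and 13.8 and 29.0 for Otx2. The 3 Muller glia genes Glul, Rlbp1 and Slc1a3 were marked in all 6 libraries, with a summed height of 117 to 138 at P0 and 74.8 to 87.1 at P21, and the 3 amacrine genes Tfap2a, Tfap2b and Gad1 had a sum of 38.3 to 55.3 at P0 and 12.5 to 19.8 at P21. Of 4 pigment epithelium genes Rpe65, Tyr and Best1 had none in these libraries and Mitf had one, and of 3 lens genes Cryaa and Cryba1 had none and Bfsp1 had one. Optic nerve glia were represented by Pdgfra, with a peak at P0 only, and vessels by Cldn5, with a peak at each stage. The rod genes Nrl and Pde6b rose, with a summed H3K4me3 height of 5.03 to 5.70 at P0 and 87.3 to 99.5 at P21; the part of these shifts in the values below was not tested. The peak lists held 18534 to 24124 peaks for H3K4me3, 17433 to 50005 for H3K27Ac and 50861 for Brg1. The H3K27Ac libraries titled replicate 1 of P0, P14 and P21 held 17433 to 18718 peaks and the others 29304 to 50005, and weak peaks can be absent from the shorter lists. Read depth is not known for any of them.

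Of the 9 ganglion cell genes, 8 had an H3K4me3 peak at the start in all 8 libraries, against 60.5% of all placed genes. Sncg, which encodes γ-synuclein, had none in any library. H3K27me3 islands lay at the start of 7 members in all 9 H3K27me3 libraries, against 13.0% of all genes, and the same 7 members carried both marks in every library of each, against 8.95%. They were Pou4f1, Pou4f2, Pou4f3, Isl1, Rbpms, Thy1 and Nefl. H3K27Ac was sparse by contrast: only Rbpms and Elavl4 had a peak in both P0 libraries, against 50.5% of all genes, and 5 members had a peak in any of the 9 H3K27Ac libraries, against 63.6%. Both libraries of both marks were positive at P0 in 7 of 9 members (17.7% of all genes), at P14 in 8 (14.2%) and at P21 in 8 (13.7%), Elavl4 being the addition. At P21 2 of 9 members had H3K27Ac in either library, against 56.2%. In whole retina the marks may come from different cells, and fewer cells of a type and less signal per cell cannot be told apart.

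**Figure D1:**
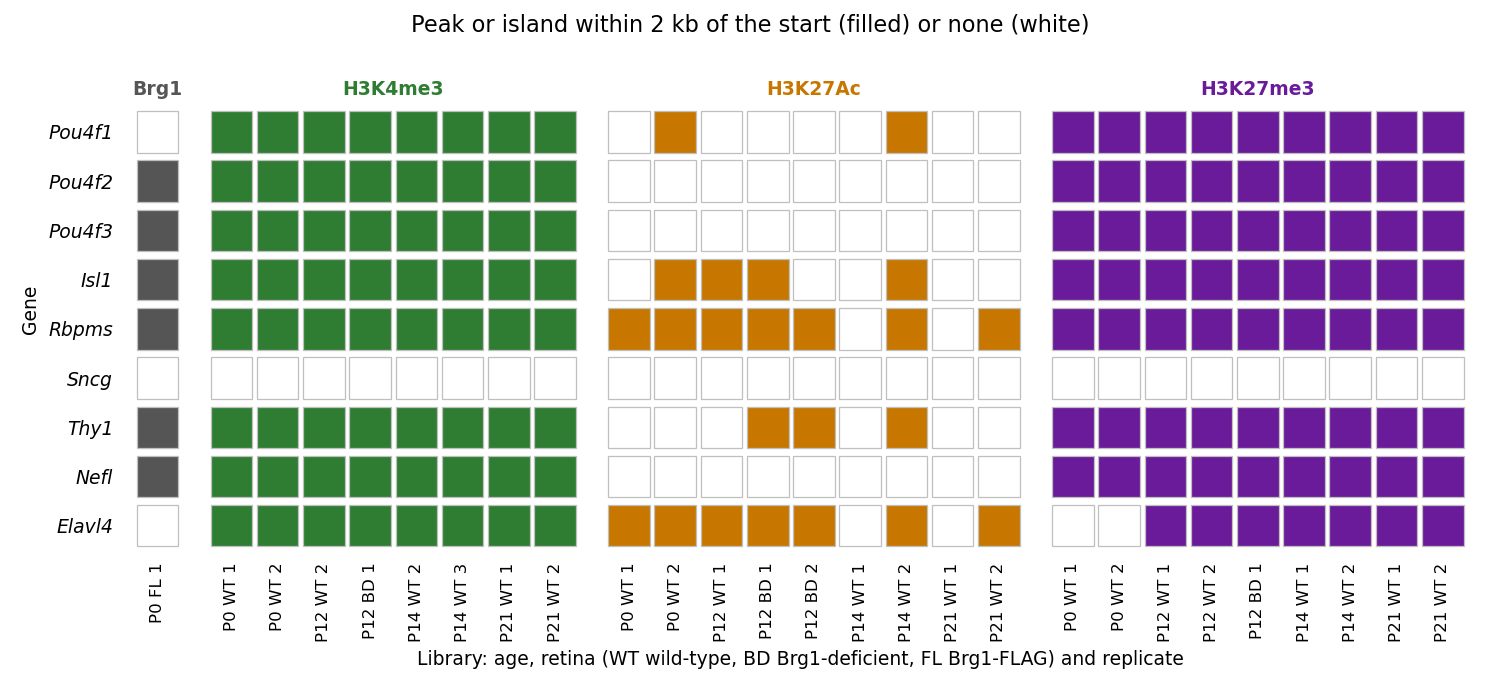
Each square is 1 gene (row) in 1 library (column), filled where a peak (Brg1, H3K4me3, H3K27Ac) or an island (H3K27me3) lay within 2 kb of the start and white where none did. H3K4me3 and H3K27me3 fill nearly all rows, H3K27Ac is scattered, and Sncg is white throughout.

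Of the 4 ganglion cell transcription factors, Pou4f2 and Isl1 fell in H3K4me3 height between P0 and P21, and Pou4f1 and Pou4f3 did not pass the test. The deposited height of a peak is its fold enrichment over background at the summit, and heights were divided by a factor per library (0.641 to 1.70) that equalised the library medians over genes with a peak in every library. Pou4f2, a POU-domain factor of ganglion cell differentiation, had scaled heights of 29.3 and 30.1 at P0, 11.5 and 12.5 at P14, and 4.63 and 6.49 at P21. At P0 these peaks were higher than those of 33.4% and 34.3% of genes with a peak. The 3 stages did not overlap, and each later stage lay below the one before it. The mean fell from 29.7 ± 0.621 (SD, n = 2) at P0 to 5.56 ± 1.31 at P21, a log2 difference of -1.52 (SE 0.25) on the scale of log2(height + 7.40), with an adjusted P of 0.00657 in limma. The pseudocount of 7.40 is the 5th percentile of the heights, and it makes the log2 difference smaller than the ratio of the means.

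Isl1, a LIM-homeodomain factor that bipolar and amacrine cells also use, had scaled heights of 29.7 and 45.6 at P0, 23.0 and 19.3 at P14, and 5.79 and 8.02 at P21. It followed the same order without overlap between stages. Its mean fell from 37.7 ± 11.2 to 6.91 ± 1.58 (SD, n = 2), a log2 difference of -1.64 (SE 0.27, limma adjusted P = 0.00701). At P14 neither gene passed the test against P0, with log2 differences of -0.94 for Pou4f2 (SE 0.25, limma adjusted P = 0.0913) and -0.64 for Isl1 (SE 0.27, limma adjusted P = 0.302).

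The other POU-domain factors did not pass this test. Pou4f1 had scaled heights of 19.8 and 49.7 at P0, 24.7 and 24.5 at P14, and 11.4 and 26.2 at P21. The P0 libraries lay far apart, and their range covered that of the later stages in all but 1 library. Pou4f3, which is also the POU4 factor of inner-ear hair cells, had scaled heights of 9.05 and 12.5 at P0, 3.92 and 7.98 at P14, and 3.25 and 7.44 at P21. Its peaks were lower than those of Pou4f1 in all 6 libraries and lower than those of Pou4f2 in all but P21 replicate 2. Both later stages lay below both P0 values. The log2 differences between P21 and P0 were -0.65 for Pou4f1 (SE 0.37, limma adjusted P = 0.389) and -0.53 for Pou4f3 (SE 0.29, limma adjusted P = 0.364).

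Among the RNA-binding genes, Rbpms, a marker of nearly all ganglion cells, had scaled heights of 44.6 and 32.5 at P0, 32.2 and 32.6 at P14, and 20.9 and 22.6 at P21. Both P21 values lay below both P0 values, with a log2 difference of -0.64 (SE 0.26, limma adjusted P = 0.184). Elavl4 (HuD), which stabilises neuronal mRNAs and is used by amacrine cells too, had scaled heights of 21.1 and 28.0 at P0, 32.8 and 32.1 at P14, and 28.1 and 24.3 at P21. It was the 1 member whose P14 values lay above both P0 values, and its log2 difference between P21 and P0 was 0.08 (SE 0.26, limma adjusted P = 0.933).

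Neither of the 2 marked genes of structure and surface passed the test. Thy1, a surface glycoprotein of ganglion cells and other neurons, had scaled heights of 10.4 and 11.6 at P0, 6.54 and 7.38 at P14, and 7.38 and 7.61 at P21. Nefl, the light neurofilament chain of axons, had 28.6 and 14.1 at P0, 14.3 and 10.1 at P14, and 8.28 and 12.6 at P21. In both genes P21 lay below P0 without overlap. Their log2 differences between P21 and P0 were -0.30 (SE 0.25, limma adjusted P = 0.619) and -0.65 (SE 0.30, limma adjusted P = 0.270).

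**Figure D2:**
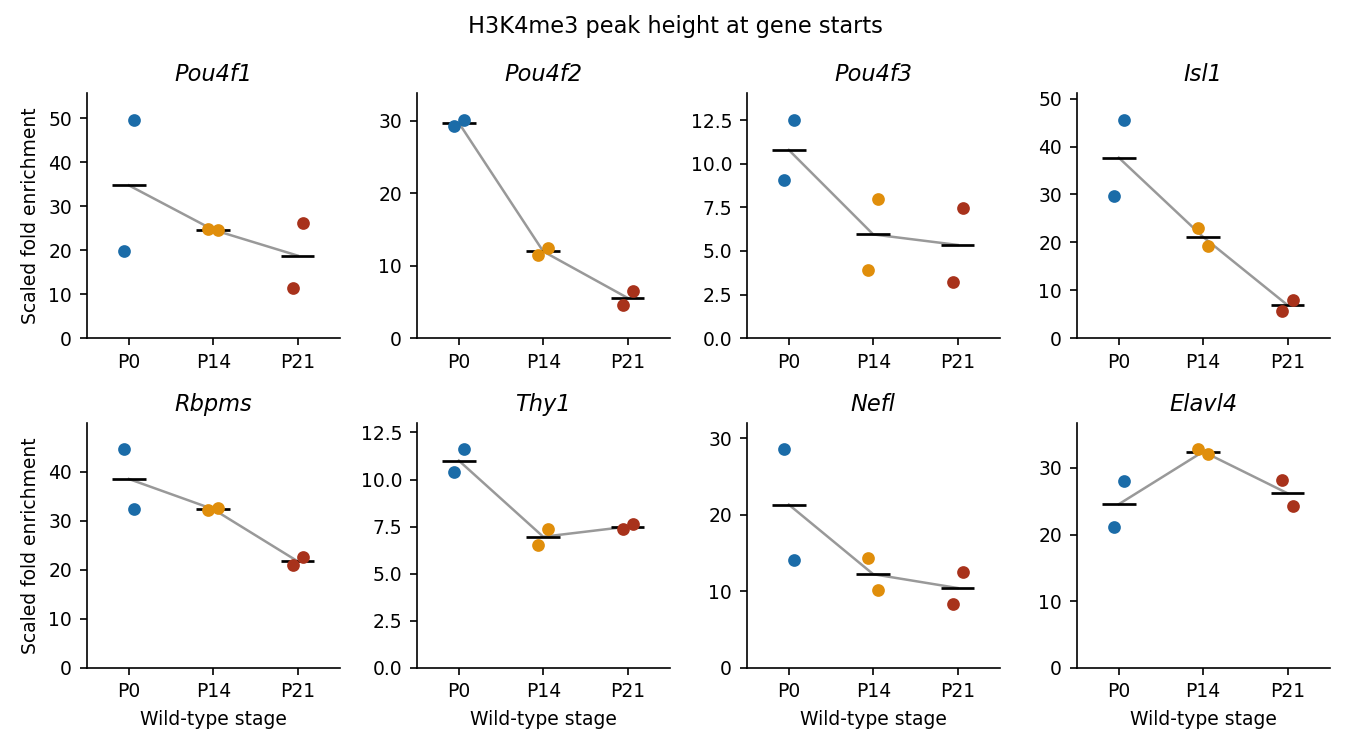
Scaled H3K4me3 peak height (fold enrichment, vertical axis, starting at 0 and drawn to its own scale for each gene) at the start of 8 genes at the 3 wild-type stages; each point is 1 library, short bars are means of 2 libraries and the grey line joins them. Pou4f2 falls from 29.3 and 30.1 to 4.63 and 6.49 and Isl1 from 29.7 and 45.6 to 5.79 and 8.02, while Elavl4 stays between 21.1 and 32.8.

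Over the list, 2 of 8 tested members fell in H3K4me3 height between P0 and P21 and none rose, against 5.24% of 10825 tested genes lower and 0.721% higher. The median log2 difference was -0.65 over the members and -0.08 over all genes tested. Among the 1495 genes that carried both H3K4me3 and H3K27me3 in every library, 13.6% fell and the median was -0.55, and 2 of the 7 members in that class fell, with a median of -0.65. In 6 of 8 members both P21 values lay below both P0 values, which held for 31.4% of all tested genes, and no member lay above (14.6%). At P14 4 of 8 lay below P0 (25.5%) and Elavl4 above (18.2%). Between P14 and P0 no member passed, against 1.32% of all genes (limma, 143 genes), while at an unadjusted P under 0.05 there were 1557 genes, among them Pou4f2 and Isl1. Between P21 and P14 again no member passed, against 0.0370% (4 genes, with 694 at an unadjusted P under 0.05). The P21 libraries carried the largest correction, with factors of 1.70 and 0.641, and the calls rested on it and on both P21 libraries. Without scaling no member passed, with differences of -1.54 for Pou4f2 (adjusted P = 0.361) and -1.65 for Isl1 (adjusted P = 0.277), and the split over all genes turned from 567 lower and 78 higher to 6 lower and 21 higher. Without P21 replicate 1 or without P21 replicate 2 no member passed either, with differences of -1.36 and -1.64 for Pou4f2 (adjusted P = 0.0715 and 0.0530) and of -1.47 and -1.77 for Isl1 (adjusted P = 0.0755 and 0.0539).

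The highest H3K4me3 peak at the start was shorter at P21 than at P0 in 6 of 8 members, against 9.63% of the 10136 genes with a peak in every wild-type library of these stages (limma, below). The Pou4f2 peak measured 3894 and 4219 bp at P0, with a mean longer than that of 97.8% of these genes. It measured 901 and 1054 bp at P14 and 528 and 696 bp at P21. The mean at P21 was 0.151 of that at P0, and only 0.0592% of genes had a lower ratio. The median over all genes was 1786 bp at P0 and 1779 bp at P21.

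Pou4f3 shortened in the same way, from 1872 and 2030 bp at P0 to 220 and 569 bp at P14 and 521 and 331 bp at P21. Isl1 went from 1975 and 2529 bp to 1123 and 1342 bp and then 1112 and 855 bp. Pou4f1 went from 1991 and 3244 bp to 1224 and 1319 bp and then 1485 and 1150 bp. These are lengths of the highest peak alone. In each of the 4 transcription factors every later library was below both P0 libraries, and the greater part of the difference was reached by P14. The Pou4f1 stretch called as 1 peak in P0 replicate 2 was called as separate peaks in P0 replicate 1 (765 and 1991 bp). It was also split at P14 (955 and 1224 bp, 979 and 1319 bp) and P21 (519 and 1485 bp, 967 and 1150 bp). Under the alternatives the Pou4f1 log2 difference in length at P14 against P0 ranged from -1.13 to -0.024. With summed lengths it was not called.

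Rbpms measured 2503 and 2620 bp at P0, 1594 and 1710 bp at P14, and 1689 and 1366 bp at P21. Elavl4 measured 1399 and 1512 bp, 1145 and 1190 bp, and 1144 and 1013 bp. Nefl measured 1915 and 2456 bp, 1764 and 1735 bp, and 1796 and 1567 bp. Their P21 to P0 ratios of 0.596, 0.741 and 0.769 were above those of the 4 transcription factors, which were 0.151 to 0.503. Thy1 measured 1142 and 1066 bp at P0, 874 and 1110 bp at P14, and 1270 and 738 bp at P21, so its stages overlapped.

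**Figure D3:**
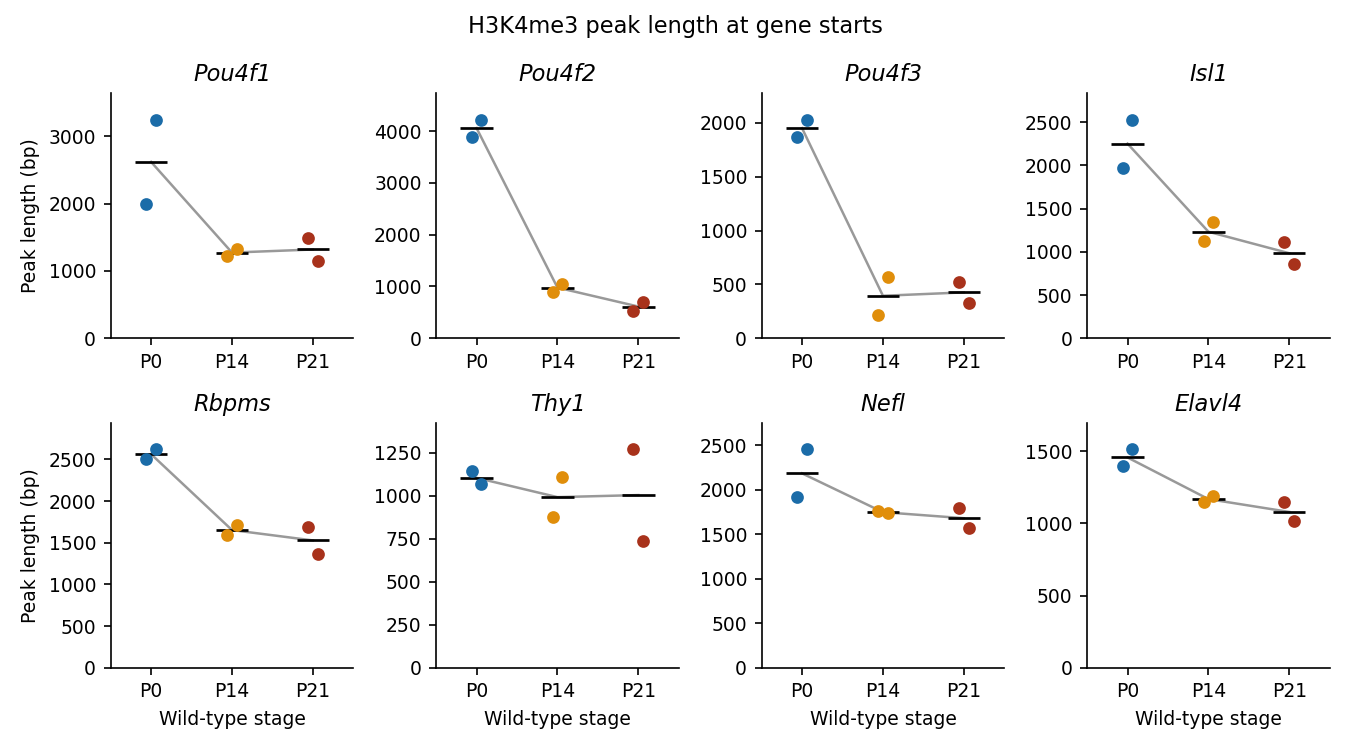
Length of the highest H3K4me3 peak within 2 kb of the start (bp, vertical axis from 0, drawn to its own scale for each gene) at the 3 wild-type stages; points are libraries, short bars are means of 2 and the grey line joins them. In Pou4f2 the length drops from 3894 and 4219 bp to 528 and 696 bp, and in Thy1 the stages overlap.

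In limma on the log2 lengths, scaled on library medians, none of the 8 members was longer at P21 than at P0, against 5.97% of genes longer. This test was chosen after the heights had been seen. The log2 differences were -2.72 for Pou4f2 (SE 0.23, limma adjusted P = 0.00298) and -2.21 for Pou4f3 (SE 0.40, limma adjusted P = 0.0212). They were -1.18 for Isl1 (SE 0.11, limma adjusted P = 0.00380), -0.94 for Pou4f1 (SE 0.19, limma adjusted P = 0.0276), -0.74 for Rbpms (SE 0.08, limma adjusted P = 0.00489) and -0.42 for Elavl4 (SE 0.09, limma adjusted P = 0.0299). Nefl, at -0.35 (SE 0.11, limma adjusted P = 0.0935), and Thy1, at -0.17 (SE 0.19, limma adjusted P = 0.570), did not pass. At P14 4 members were shorter than at P0 and none longer, against 5.39% of genes shorter and 3.31% longer: Pou4f2 at -1.90 (SE 0.23, limma adjusted P = 0.0103), Pou4f3 at -2.31 (SE 0.40, limma adjusted P = 0.0257), Isl1 at -0.71 (SE 0.11, limma adjusted P = 0.0187) and Rbpms at -0.48 (SE 0.08, limma adjusted P = 0.0206). Between P21 and P14 no member passed, against 0.00987% longer (1 gene) and 699 genes at an unadjusted P under 0.05. Both scaled P21 lengths lay below both P0 lengths in 7 of 8 members, against 31.6% of genes, and both P14 lengths in 6 of 8, against 31.1%. Among the genes with both H3K4me3 and H3K27me3 in every library, 27.4% were shorter at P21 with a median of -0.35, and 5 of the 7 members in that class were shorter, with a median of -0.94. A called length also depends on the height of a peak and on the depth of its library.

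The P21 length calls of Pou4f2, Isl1 and Rbpms held under all 11 alternatives, those of Pou4f1 under 4 and of Elavl4 under 3 of 11, and that of Pou4f3 under 7 of 10. Each single library left out ended some of these calls and left 4 members called. Without P14 replicate 2 or 3, or P21 replicate 1, Pou4f1 and Elavl4 were lost, without P0 replicate 1 or 2 Pou4f3 and Elavl4, and without P21 replicate 2 Pou4f1 and Pou4f3. The P14 calls were fewer without 1 library of the stages compared. Without P0 replicate 1 all 4 were lost and Pou4f1 was called in their place, without P0 replicate 2 none was called, and without P14 replicate 2 or 3 only Pou4f3 was. Without P21 replicate 2 the Pou4f2 peak passed as shorter at P21 than at P14, at -1.18 against -0.82 with all libraries.

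H3K27me3 lay over most of these genes at every age, in islands far longer than usual for the transcription factors. The Pou4f3 island was the longest, at 48.8 and 46.2 kb at P0, 57.4 and 58.4 kb at P14, and 45.6 and 36.8 kb at P21. The Pou4f2 island measured 30.0 and 28.8 kb at P0, 34.6 and 29.6 kb at P14, and 31.4 and 31.4 kb at P21. The Isl1 island measured 30.8 and 28.0 kb, 28.4 and 28.2 kb, and 27.2 and 27.8 kb. The Pou4f1 island measured 28.0 and 27.8 kb, 33.0 and 19.8 kb, and 36.6 and 37.2 kb. Over all gene starts with an island the median length was 5.4 to 8.0 kb in the 9 libraries, and 8.53% to 16.8% had an island over 20 kb. The islands of all 4 factors covered the whole gene in all 9 libraries, and in 8 of 9 libraries all 4 were over 20 kb. The exception was P14 replicate 2, where the Pou4f1 island measured 19.8 kb. Both P21 lengths lay above both P0 lengths in 4 of the 7 members with an island at all 3 stages (Pou4f1, Pou4f2, Rbpms and Nefl), against 24.4% of 2309 such genes, and below them in 2 (Pou4f3 and Isl1), against 25.0%. The difference in island length between stages was not tested.

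The islands of Thy1, Rbpms and Elavl4 were shorter than those of the 4 factors in every library. That of Nefl was longer than that of Isl1 in P14 replicate 1 (29.2 against 28.4 kb) and longer than those of Pou4f1, Pou4f2 and Isl1 in P21 replicate 1 (37.4 kb). Thy1 measured 9.20 to 11.4 kb and Nefl 11.8 to 37.4 kb over the 9 libraries. Rbpms measured 4.0 to 7.0 kb and did not cover its gene of 147280 bp. Elavl4 had no island at the start in either P0 library and a short one, 1.40 to 2.60 kb with 43 to 91 reads, in all 4 libraries of P14 and P21. That pattern was found in 1.90% of all genes. The 3 P12 libraries of the other antibody held an island of 1.80 to 2.80 kb there. Sncg had none. All islands named here lay over the estimated start, which held in all 9 libraries for 7 members and for 10.8% of all genes.

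**Figure D4:**
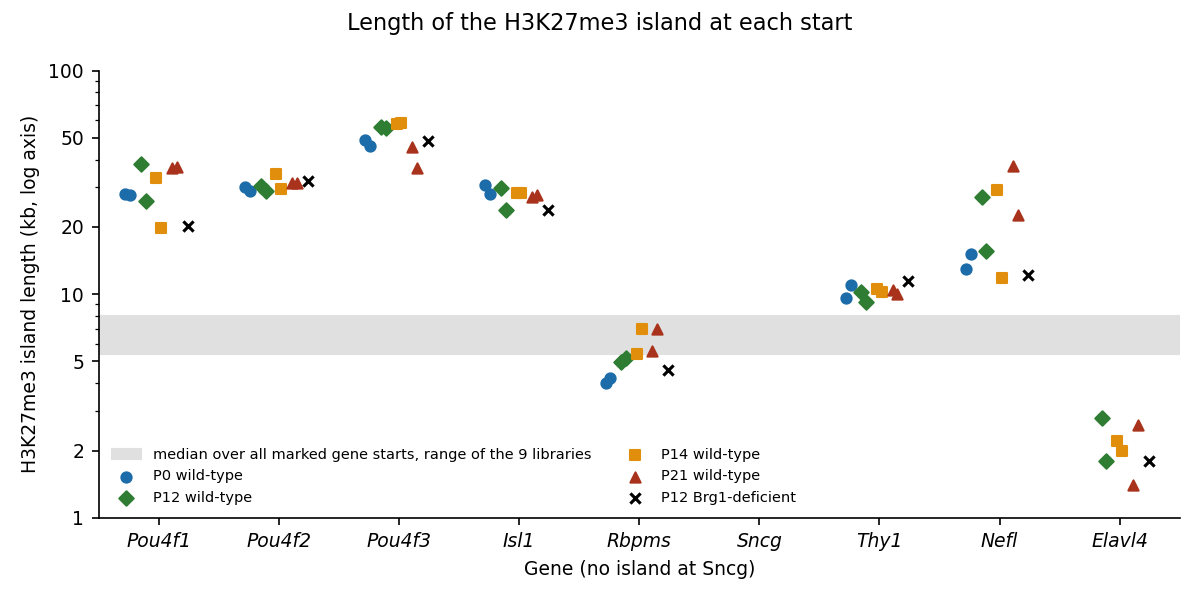
Length of the H3K27me3 island at the start of each gene (kb, log axis), 1 point per library, with colour and shape giving age and genotype; the grey band spans the library medians over all marked gene starts, 5.4 to 8.0 kb. The 4 transcription factors lie at 19.8 to 58.4 kb, Thy1 and Nefl above the band, Rbpms near it and Elavl4 below it.

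H3K27Ac at the start was found at only some members and was weak. Rbpms had deposited heights of 8.14 and 6.74 at P0, 5.54 in P14 replicate 2 and 3.27 in P21 replicate 2. Elavl4 had 6.63 and 5.53 at P0, 8.50 in P14 replicate 2 and 5.34 in P21 replicate 2. Neither gene had a peak in P14 replicate 1 or P21 replicate 1, the lists with few peaks. Pou4f1 had a peak in P0 replicate 2 (5.0) and P14 replicate 2 (4.10) alone, and Isl1 in P0 replicate 2 (4.31) and P14 replicate 2 (4.56) among these stages. Thy1 had one in P14 replicate 2 (3.65) among them. Pou4f2, Pou4f3 and Nefl had no H3K27Ac peak at the start, in the gene or in 20 kb on each side in any of the 9 libraries, so Pou4f2 and Pou4f3 carried H3K4me3 without called H3K27Ac even at P0.

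Of the 4 members with enough peaks for a test, none passed between any 2 stages. Against P0 the P21 differences, on the scale of log2(height + 3.20), were -1.15 for Rbpms (SE 0.51, limma adjusted P = 0.532), -0.76 for Elavl4 (SE 0.63, limma adjusted P = 0.660), -0.63 for Pou4f1 (SE 0.53, limma adjusted P = 0.660) and -0.57 for Isl1 (SE 0.51, limma adjusted P = 0.665). The members' median was -0.69 and that of all genes tested -0.24. Pou4f1 and Isl1 entered the test through P0 and P14 peaks and had no P21 peak. Their differences could only be negative, so no direction is read from the members' median. Limma called 0 of 9893 genes (0.00%) for this mark at the start in each comparison, with 723, 1014 and 117 genes at an unadjusted P under 0.05 for P14 against P0, P21 against P0 and P21 against P14. On simulated heights with 200 genes changed the same fit recovered 0 for H3K27Ac and 197 for H3K4me3, so H3K27Ac changes at the start were not detectable in this design. With the replicate number as a block the P21 differences of these 4 members had adjusted P values of 0.254 to 0.474 (limma), and again none passed. Over the H3K27Ac regions in and around the members 14 were found, 7 were tested and none passed at P21, against 10.4% of 33340 regions; at P14 0 of 33340 regions passed in limma, with 5337 at an unadjusted P under 0.05. The 2 regions near Thy1 with the largest positive differences, 0.95 and 0.85, lay 482 and 1419 bp from the start of the neighbouring gene Usp2.

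Brg1 was present around every member at P0. All 9 had a Brg1 peak in the gene or 20 kb on each side, against 71.6% of all genes. The only peak of Elavl4 lay 65.2 kb along its gene. At the start itself 6 of 9 had a Brg1 peak, against 55.4% of all genes. That of Nefl was weak, higher than only 0.421% of Brg1 peaks at gene starts. Among the members with H3K4me3 in all 8 libraries 6 of 8 had one, against 85.0% of all such genes. Among those with both H3K4me3 and H3K27me3 throughout 6 of 7 had one, against 78.4%. The highest was at Rbpms, with a height of 6.75 and a length of 1614 bp. It was followed by Thy1 with 6.55, Isl1 with 6.19, Pou4f3 with 4.98, Pou4f2 with 4.32 and Nefl with 2.83, and with 1 library these levels have no replicate error. Pou4f1, Sncg and Elavl4 had none at the start. For Pou4f1 the nearest Brg1 peaks lay 3.21 kb (height 3.66) and 7.35 kb (4.05) along the gene.

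Several members had further peaks away from the start. Pou4f2 had a second H3K4me3 peak about 16.4 kb from the start along the gene's strand, beyond the 3639 bp gene, in all 8 libraries. Its deposited heights were 16.9 and 25.8 at P0, 7.65 and 5.82 at P14, and 5.74 and 3.70 at P21. P0 was above both later stages, as at the start. A Brg1 peak of height 6.19 had its summit at 16.4 kb as well, and 2 more lay at 8.96 kb (6.75) and 9.94 kb (4.50). No other RefSeq gene lies within 20 kb of Pou4f2. Sncg, without any mark at the start, had an H3K4me3 peak about 11 kb along the strand, also in all 8 libraries, with deposited heights of 15.5 and 24.1 at P0, 8.20 and 6.20 at P14, and 11.99 and 6.05 at P21. A Brg1 peak (5.51) and an H3K27Ac peak in 4 of 9 libraries stood at the same place. P0 was again above the later stages. The noncoding gene Gm41131 spans 7.10 to 9.54 kb on the same scale, the nearest other coding start, that of Fam25c at 16.3 kb, lies 5246 to 5638 bp beyond the H3K4me3 summits, and the nearer end of Mmrn2 lies 0.835 kb to the other side of the Sncg start, so the peak cannot be assigned to Sncg from position alone. Pou4f1 had a peak at about 8 kb in all 8 libraries, just before the nearer end of the noncoding gene D130079A08Rik at 8.78 kb. Its height was 17.3 in P0 replicate 2 and 3.51 to 7.89 in the other libraries. Rbpms had an internal H3K4me3 peak at about 96.5 kb in all 8 libraries, with 11.0 and 14.1 at P0 and 16.1 and 6.23 at P21. At the inner Elavl4 starts, whose promoter with few CG is printed above, H3K4me3 peaks at 64.3 to 66.5 kb were found in 5 of 8 libraries, at heights of 3.18 to 6.44.

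**Figure D5:**
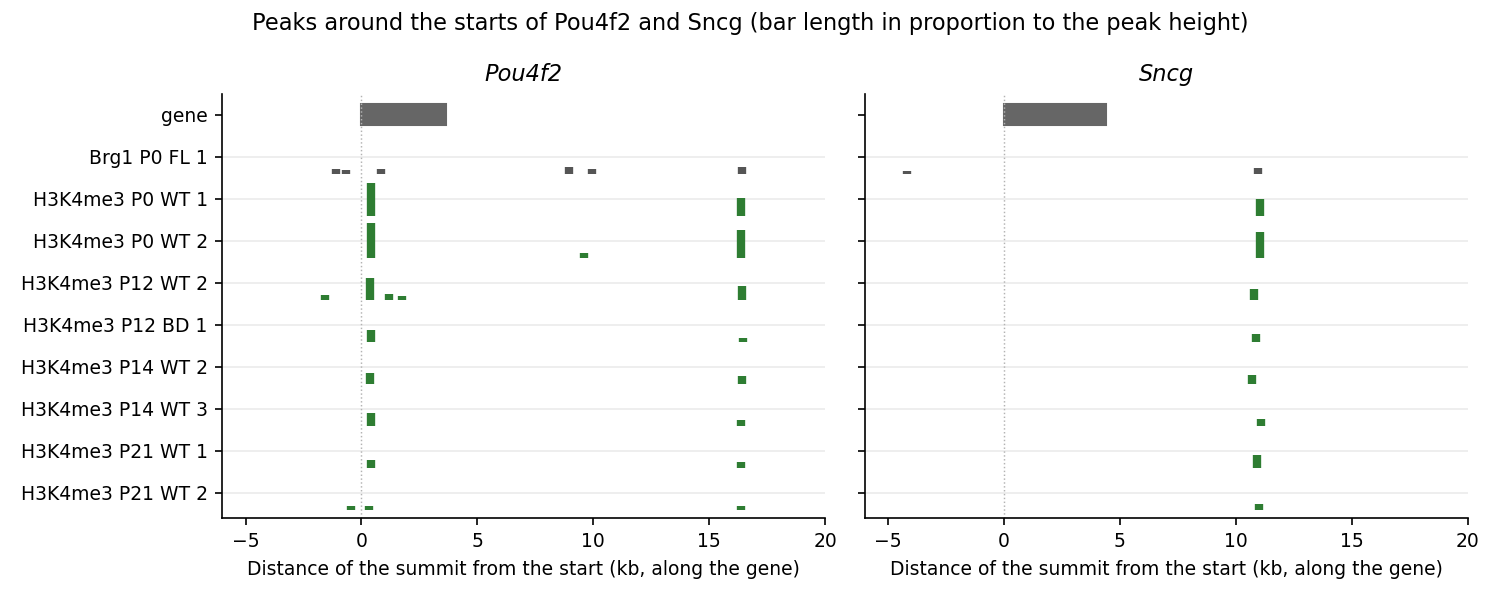
Peak summits around Pou4f2 and Sncg in kb from the estimated start along the gene (horizontal axis), with 1 row per library; the length of each bar is in proportion to the deposited height, up to 31.6, and the grey box is the gene. The peak at 16.4 kb of Pou4f2 and that near 11 kb of Sncg recur in all 8 H3K4me3 libraries, and Sncg has no bar at its start.

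At P12, Brg1-deficient and wild-type retinae had similar H3K4me3 heights at most members. There was 1 wild-type library per mark for H3K4me3 and H3K27Ac, so no test is given. In H3K4me3 no member differed 2-fold, against 4.84% of marked genes lower and 2.23% higher in the Brg1-deficient library. The scaled heights were 16.5 in the wild-type and 14.1 in the Brg1-deficient library for Pou4f2, 21.6 and 21.9 for Isl1, 35.5 and 41.0 for Pou4f1, and 9.54 and 9.54 for Pou4f3. The ratio lay between 0.851 and 1.16 for these 4 factors. Rbpms had 61.0 and 59.8, Nefl 12.6 and 11.0, Thy1 9.93 and 13.6, and Elavl4 56.4 and 33.4. The scaled height was lower in the Brg1-deficient library in 5 of 8 members, against 47.0% of genes. Elavl4 had the lowest ratio, 0.593, and Thy1 the highest, 1.37. The Pou4f2 peak measured 1480 bp in the wild-type and 924 bp in the Brg1-deficient library, whose list was the shorter (19495 against 22846 peaks). Its peak at 16.4 kb had scaled heights of 10.6 and 4.37 (deposited heights of 13.1 and 3.55, divided by library factors of 1.23 and 0.812). That Brg1-deficient peak was weak (-log10 q of 2.24), and the share of all such peaks past 2-fold was not computed. At the other distant peaks named above the deposited heights were 10.6 and 7.57 for Sncg, 7.85 and 4.62 for Pou4f1, and 12.4 and 9.44 for Rbpms. At the inner Elavl4 starts they were 3.18 and no peak. These heights were not divided by the factors, which lower the wild-type values and raise the Brg1-deficient ones, so no direction is read from them.

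In H3K27Ac at P12, Thy1 had a peak in both Brg1-deficient libraries (scaled heights of 4.38 and 3.01) and none in the wild-type one. Both peaks were weak, higher than only 7.79% and 0.673% of the peaks at gene starts in their libraries. Thy1 was the 1 member past the limit of a 2-fold difference or a peak on 1 side alone in every Brg1-deficient library, against 4.86% of marked genes higher and 1.53% lower. Rbpms had scaled heights of 4.29 in the wild-type and 4.79 and 7.66 in the Brg1-deficient libraries. Elavl4 had 6.74 against 5.83 and 5.83, although its deposited heights lay the other way (5.89 against 6.31 and 6.16). Isl1 had a scaled height of 4.90 against 5.20 in replicate 1 and no peak in replicate 2. In H3K27me3 the Brg1-deficient island was shorter than both wild-type ones in 4 of 8 members (Pou4f1, Pou4f3, Rbpms and Nefl), against 39.0% of 3423 genes with an island in the 3 libraries, and longer than both in 2 (Pou4f2 and Thy1), against 23.7%. The Pou4f2 island of the Brg1-deficient library measured 32 kb against 30.4 and 29.0 kb in wild-type retinae, that of Pou4f1 20.2 kb against 38.0 and 26.2 kb, and that of Pou4f3 48.4 kb against 56.0 and 55.2 kb. The error of the Brg1-deficient lengths is unknown with 1 library.

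The wider ganglion cell programme was measured in the same way. Of 29 further genes 17 could be placed and 15 were tested for H3K4me3 height, of which 12 had a difference below 0. Between P0 and P21 3 of the 15 fell and none rose, against 5.24% of all tested genes lower and 0.721% higher: Ebf1, an early B-cell factor family member used in developing ganglion cells, at -1.28 (SE 0.31, limma adjusted P = 0.0326), Tbr1, a T-box factor of a ganglion cell subset, at -1.24 (SE 0.25, limma adjusted P = 0.0136), and the zinc finger gene Myt1 at -0.98 (SE 0.26, limma adjusted P = 0.0450). Tbr1, Myt1, Irx2 and Dcx had a peak in both P0 libraries and in no P14 or P21 library. They entered the test through P0 alone and could only fall, so their signs and the calls of Tbr1 and Myt1 say nothing of direction. The highest differences were 0.28 for Rbpms2 and 0.11 for Klf7, which did not pass. The list's median was -0.75, against -0.08 over all genes tested. That median and the 12 differences below 0 include Tbr1, Myt1, Irx2 and Dcx, so no direction is read from them. Of the 3 called genes only Ebf1 had peaks at every stage. Opn4, the melanopsin gene, had no H3K4me3 peak at the start, and Slc17a6, the vesicular glutamate transporter of ganglion cells, had one in 1 P0 library alone. In length 6 of 10 tested genes were shorter at P21 and none longer, against 9.63% of all genes shorter and 5.97% longer, namely Atoh7, Sox4, Sox11, Ebf1, Ebf3 and Eomes. In H3K27Ac 10 were tested and none passed, with the lowest values for Sox11 at -2.19 (limma adjusted P = 0.225) and Sox4 at -1.66 (limma adjusted P = 0.40) and the highest for Tubb3 at 0.73 and Opn4 at 0.68. Opn4 had no H3K27Ac peak at P0 and could only rise, and Sox11 had none at P21 and could only fall. H3K27me3 lay at the start of 8 of the 17 placed genes in all 9 libraries, against 13.0% of all genes.

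Genes of amacrine and horizontal cells, which also lie in the inner retina, and of rods were measured beside them. Of 11 tested amacrine and horizontal cell genes 4 fell in H3K4me3 height at P21 (Tfap2b, Lhx1, Gad2 and Barhl2), against 5.24% of all genes, with a median of -0.87, and 10 of 11 placed genes had H3K27me3 in all 9 libraries, against 13.0%. Of 5 tested rod genes 4 rose (Pde6b, Cnga1, Nrl and Prph2), against 0.721% of all genes, with a median of 2.139, and none of the 7 placed had H3K27me3 in all 9 libraries. Pde6b and Cnga1 had no H3K4me3 peak in either P0 library, entered the test through P14 and P21 alone and could only rise. The difference between these lists and the members was not tested.

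Over the 17 H3K4me3 and H3K27Ac libraries, the genes whose log2 heights were most like those of Pou4f2 were Spata18 (Pearson r = 0.89), Foxl2 (0.87) and Cabp1 (0.85). For Isl1 they were Frzb (0.93), Timp3 (0.92) and Tpd52l1 (0.91), and for Pou4f1 LOC108167368 (0.95), Ppp1ccb (0.93) and Ptprt (0.92). Among the members themselves r was 0.68 between Pou4f2 and Isl1, 0.62 between Pou4f1 and Isl1 and 0.37 between Pou4f1 and Pou4f2. Heights were centred within each mark, and Pou4f2 had no peak in the 9 H3K27Ac libraries, so its values rest on the 8 H3K4me3 libraries. These are descriptions over libraries that share stage, depth and enrichment, among 10071 or 10072 genes.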

How the data were processed

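ChIP-Seq of retina was deposited as 18 peak lists and 9 H3K27me3 island lists (27 of 35 samples; no file of the 8 inputs was used here). The submitters' processing notes name CASAVA, BWA 0.5.9-r26, Picard 1.65, SAMtools, R 2.14.0, MACS2 2.0.9, bedtools 2.17.0, SICER 1.1 and build mm9, without roles, and the use of inputs is not stated. The authors deposited for each peak the fold enrichment at the summit (a ratio, used as height), the −log10 p-value and −log10 q-value, a score derived from the latter and the summit offset, one list per library. The deposited islands carry counts of reads, which sum to between 3522435 and 10713290 per library. Weak peaks are called only where depth allows, and depth is unknown.

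RefSeq starts (GRCm38.p6, 17278 of 21900 coding genes with a strand) were moved to mm9 by offsets from coding genes in 5 Mb windows, followed across steps. With 1 offset per window, steps not followed, Rbpms has no peak at its start. Offsets from genes within 2 Mb were 1064400 bp for Rbpms and -6136400 bp for Pou4f3, against 1110574 and 159651 bp used here. Under that alternative neither gene entered the test of H3K4me3 height. The strands of Rbpms, Thy1, Nefl and Pou4f3 are from general knowledge. Heights were scaled and tested with limma 3.58.1 (R 4.3.3) on log2(height + 5th percentile), all 6 wild-type libraries in one fit, for genes with peaks in at least 2, with Benjamini-Hochberg adjustment at 0.05 over all genes. Peak length was tested likewise over genes with a peak in every library. On simulated heights with 200 genes changed by 2 log2 units, 197 were recovered for H3K4me3 (10770 genes), 0 for H3K27Ac (9344 genes) and 195 for length (10136 genes). Tables and figures were made with Python 3.11.15. All 9 genes are named, with the lowest 2 and highest 2 of the wider programme for each mark and any gene without a peak. The members and lists were chosen with earlier results of these data known. P12 was described without a test. Alternatives covered scaling, pseudocount, filters, peak threshold, distance, offsets, the samples in the fit, the replicate block and leaving out each library. Replicate numbers were followed from the titles (P14 H3K4me3 is titled 2 and 3).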

Additional observations from a re-analysis of the deposited data

How the results depend on the processing

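The number of members called lower in H3K4me3 height at P21 against P0 was 2, and 0 without scaling and 0 to 2 without single libraries. For H3K27Ac regions at P21 it was 0, and 1 with equal numbers of peaks per library, the region at the Rbpms start. At P12 Brg1-deficient replicate 1 or 2 left out gave 1 to 2 members past the limit for H3K27Ac. For peak length, whose alternatives were all chosen after seeing the data, as was the use of one offset per 5 Mb window without following steps, the P14 count of 4 became 2 without scaling and 0 to 4 without single libraries. The P21 count of 6 became 4 without single libraries, 4 without scaling or with only the stages compared and 5 with a replicate block. Between P21 and P14 it was 0 to 1. The other 168 counts stayed within 1.5 times their value.

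Of 962 differences of single members or regions under an alternative, 32 changed sign, in 18 results, and none of these passed the test in either form. Without single libraries the H3K4me3 height differences ranged from -0.84 to 0.24 for Pou4f1 at P14 against P0, from -0.078 to 0.23 for Elavl4 at P21 against P0, and at P21 against P14 from -0.32 to 0.16 for Pou4f3, from -0.32 to 0.032 for Nefl and from -0.78 to 0.068 for Pou4f1. With -log10 q of at least 5 that of Pou4f3 was 0.22. The H3K27Ac differences at the start ranged at P14 against P0 from -0.73 to 0.31 for Isl1 and from -0.88 to 0.17 for Pou4f1, and at P21 against P14 from -0.68 to 0.72 for Elavl4 and from -0.51 to 0.50 for Rbpms. Without scaling they were 0.023 for Isl1 and -0.22 for Elavl4. In H3K27Ac regions they ranged at P14 from -0.98 to 0.43 for Isl1 (0.025 without scaling), from -1.32 to 0.72 for Sncg and from -1.17 to 0.27 for Pou4f1, and at P21 from -1.19 to 0.86 for Sncg. The peak length differences of Thy1 ranged from -0.13 to 0.11 at P14 against P0 (0.17 with summed lengths), from -0.41 to 0.069 at P21 against P0 and from -0.40 to 0.075 at P21 against P14. At P21 against P14 that of Pou4f3 ranged from -0.53 to 0.72, and that of Pou4f1 was 0.041 without scaling.

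The labels do not say that libraries with the same replicate number belong together. The correlation of replicate differences was 0.11 for H3K4me3 (P0 with P21). For H3K27Ac it was 0.15 (P0 with P14), 0.06 (P0 with P21) and 0.48 (P14 with P21), so replicates of the same number deviated together at P14 and P21. The H3K27Ac libraries numbered 1 at these stages all had short peak lists. With the replicate block 2 members were called in H3K4me3 height at P21, as without it, and 1336 genes against 645. In H3K27Ac no member passed with the block, at the start or in regions, where 6269 regions were called at P21 against 3465 without it. No block was possible for P14 H3K4me3, whose titles share 1 number with the other stages. No member had an H3K27Ac peak at the start in every library, so that filter gave no value. Read depth is unknown, and weak H3K27Ac peaks can be missing from the lists of 17433 to 18718 peaks.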
